A study of Mus musculus with 4 samples.

Results

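Among 6429 microglia from the brains of 4 mice, 233 cells carried at least 6 molecules of 8 interferon-induced genes, and 212 of these 233 cells came from the 2 aged mice. They are described here as interferon-responsive microglia, and called members for short. A member was a cell barcode with at least 1000 unique molecular identifiers (UMIs, each counting 1 captured RNA molecule) and up to 15.8% mitochondrial UMIs. It had at least 60 UMIs of the complement genes *C1qa*, *C1qb* and *C1qc* per 10000, at most 2 UMIs of the border macrophage genes *Mrc1*, *Pf4* and *Cbr2*, and at most 5 UMIs of the endothelial genes *Cldn5*, *Flt1* and *Ly6c1*. Barcodes that met these limits were taken as microglia. A member also held at least 6 UMIs of *Ifit1*, *Ifit2*, *Ifit3*, *Isg15*, *Rsad2*, *Usp18*, *Ifi44* and *Oasl2* together, and the other 6196 microglia held fewer. Of 36876 barcodes in all, 0.632% were members.

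Whole brains of C57BL/6J mice were dissociated, depleted of myelin and dead cells, and barcoded with 10X Genomics Chromium 3′ chemistry, with a single mouse at each age (adult, aged) on each diet. The adult mice were raised in-house and started the diets at 3 to 4 months of age, and the aged mice came from the National Institute on Aging and started at 23 to 24 months, so age and source of the animals cannot be told apart. Every mouse first received the purified AIN-93M diet, with used bedding mixed among mice of like age, and then a modified form of it that held 1% cellulose and either no inulin (low fiber, F0) or 5% inulin (high fiber, F5), a fermentable fiber. The sequenced mice were male according to the study's methods. The adult F0 mouse gave 9246 barcodes and 115814810 UMIs, the adult F5 mouse 10256 and 111648775, the aged F0 mouse 7881 and 88248117, and the aged F5 mouse 9493 and 108131200. Ages were compared as 2 mice against 2 with the diets pooled, and diets with the ages pooled. With 2 mice against 2, the exact permutation test cannot give a two-sided *p* under 0.333, and every *p* here measures the spread between single mice. Of the barcode sequences, 192 occurred in more than 1 library, and none of the 233 members had such a barcode.

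Type I interferons are secreted when a cell senses foreign or misplaced nucleic acid. They bind the receptor pair IFNAR1 and IFNAR2, whose kinases JAK1 and TYK2 activate transcription factors that bind the interferon-stimulated response element in the promoters of many genes that block viral replication, present antigen or recruit leukocytes. Microglia in which this programme is on form a small population in normal mouse brain and are known to become more frequent with age and disease. Of the genes in the rule, the *Ifit* genes encode proteins that bind foreign RNA, *Isg15* a ubiquitin-like modifier, *Usp18* the protease that removes it and dampens receptor signalling, *Rsad2* the enzyme viperin, which makes a chain-terminating nucleotide, *Oasl2* an oligoadenylate synthetase-like protein, and *Ifi44* an antiviral protein.

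The promoters of the rule genes are shown because the shared element can be read in them. Upstream sequences were taken from the RefSeq table of build GRCm38.p6, which held 7 of the 8 genes. The element was searched on either strand as a pair of GAAA blocks with 2 bases of any kind between them, in the 250 bases before and 50 after each start site, and it was found in 4 of the 7 (*Isg15*, *Ifit1*, *Ifit3* and *Rsad2*). Below are the 250 bases before the start, 5′ to 3′ on the strand of the gene, with matches in capitals. They lie at chr4:156200819-156201068 (minus strand, *Isg15*), chr19:34640639-34640888 (plus strand, *Ifit1*), chr19:34583279-34583528 (plus strand, *Ifit3*) and chr12:26456453-26456702 (minus strand, *Rsad2*).
Isg15: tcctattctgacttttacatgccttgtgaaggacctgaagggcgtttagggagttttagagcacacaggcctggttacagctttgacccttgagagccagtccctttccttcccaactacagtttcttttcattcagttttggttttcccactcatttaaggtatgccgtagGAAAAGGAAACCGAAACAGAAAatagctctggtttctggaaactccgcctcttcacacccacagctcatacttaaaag
Ifit1: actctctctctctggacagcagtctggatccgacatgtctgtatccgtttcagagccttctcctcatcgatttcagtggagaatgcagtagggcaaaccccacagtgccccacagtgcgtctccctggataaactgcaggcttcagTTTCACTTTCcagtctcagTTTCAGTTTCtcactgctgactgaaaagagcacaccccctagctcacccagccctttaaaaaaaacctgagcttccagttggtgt
Ifit3: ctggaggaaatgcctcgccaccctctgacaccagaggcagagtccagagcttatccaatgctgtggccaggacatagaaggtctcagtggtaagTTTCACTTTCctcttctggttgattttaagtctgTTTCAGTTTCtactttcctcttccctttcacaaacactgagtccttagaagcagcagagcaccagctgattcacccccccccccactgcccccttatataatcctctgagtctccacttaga
Rsad2: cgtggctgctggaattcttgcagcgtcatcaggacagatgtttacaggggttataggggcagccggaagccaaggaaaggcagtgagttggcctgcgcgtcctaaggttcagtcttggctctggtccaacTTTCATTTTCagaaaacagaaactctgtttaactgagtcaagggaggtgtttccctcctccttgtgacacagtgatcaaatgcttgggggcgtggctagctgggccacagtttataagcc
In *Isg15*, 3 overlapping matches ran from base 78 to base 57 before the start. In *Ifit1*, 2 matches began 104 and 85 bases before the start, and in *Ifit3* 2 matches began 156 and 122 bases before it, with the same letters in the same order (TTTCACTTTC, then TTTCAGTTTC). The single match in *Rsad2* began 120 bases before the start. Of all 27025 genes in the table, 3.99% had a match, and of the 7994 that were also measured in the members, 4.04% did. Among 38 further antiviral effectors, 15 of the 27 genes in the table had a match (55.6%), and all 9 guanylate-binding and immunity-related GTPases in the table did. None of the 9 homeostatic microglial genes in the table had one. The gamma-activated site, searched as TTCNNNGAA, where N is any base, was found in 9.55% of all genes, 1 of the 7 rule genes, 5 of the 27 effectors (18.5%), 6 of the 9 GTPases (66.7%) and 6 of 18 receptor and signalling genes (33.3%). These matches describe letters in a window and were not tested against binding.

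In annotation GENCODE vM21 of the same build, *Ifit2* (chr19:34550694-34576419), *Ifit3* (chr19:34583531-34588731) and *Ifit1* (chr19:34640871-34650009) lie close together on the plus strand, and *Isg15* (chr4:156199424-156200818), *Rsad2* (chr12:26442746-26456452) and *Usp18* (chr6:121245906-121270917) lie on other chromosomes. Seen in members were *Ifit3* in 208 of 233 cells (89.3%), *Isg15* in 182 (78.1%), *Oasl2* in 176 (75.5%), *Usp18* in 153 (65.7%) and *Rsad2* in 88 (37.8%). *Ifi44* was seen least, in 47 cells (20.2%). These values follow from the rule and are given as a description. At least 3 of the 8 genes were seen in 216 members (92.7%), all 8 in 8 members, and only 1 in 2 members. The 4 markers of the name, *Ifit3*, *Isg15*, *Rsad2* and *Usp18*, are genes of the rule and so do not check it, and interferon-induced genes that it did not use are given below. Microglial and macrophage genes (*Ctss*, *Aif1*, *Cd68*, *Fcer1g* and the *C1q* genes) summed to between 282 and 350 UMIs per 10000 in the members of the 4 mice and between 310 and 344 in the other microglia, a sum in part set by the *C1q* limit that both had to meet.

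Members made up 13 of 1539 microglia in the adult F0 mouse (0.845%, exact 95% Clopper-Pearson interval 0.451 to 1.44%) and 8 of 1563 in the adult F5 mouse (0.512%, 0.221 to 1.01%). In the aged F0 mouse they were 97 of 1712 (5.67%, 4.62 to 6.87%) and in the aged F5 mouse 115 of 1615 (7.12%, 5.91 to 8.49%). Both aged mice lay above both adult mice and their intervals did not overlap. Counting error alone enters these intervals. Adult mice averaged 0.678 ± 0.235% and aged mice 6.39 ± 1.03% (SD, n = 2), a difference of 5.72 percentage points and a ratio of 9.43, with an exact two-sided permutation *p* of 0.333, the smallest that 2 mice against 2 allow. By diet the mean was 3.26 ± 3.41% at 0% inulin and 3.82 ± 4.67% at 5% (SD, n = 2, exact permutation *p* = 1). 

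**Figure D1:**
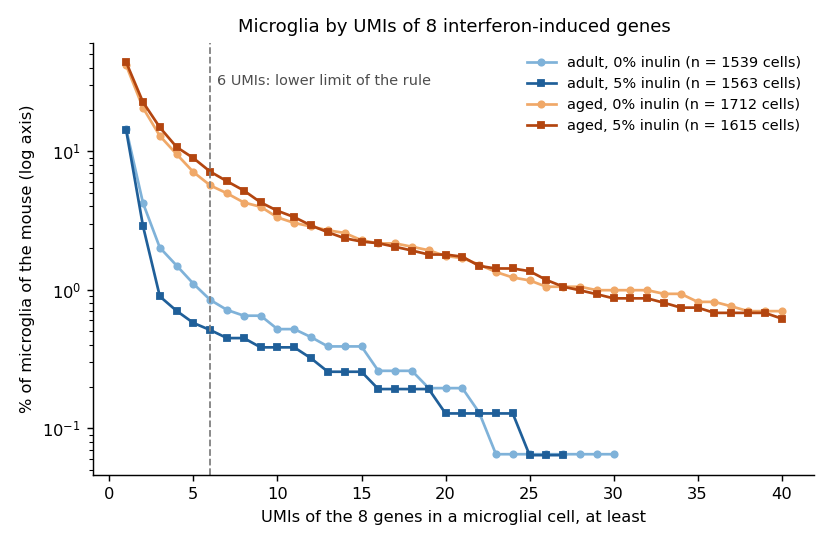
Share of the microglia of each mouse (log axis, percent) that held at least the number of UMIs of the 8 interferon-induced genes given on the horizontal axis, 1 line per mouse, with the lower limit of the rule dashed. The lines of both aged mice lie above those of both adult mice at every count drawn, and at 6 UMIs they stand at 5.67 and 7.12% against 0.845 and 0.512%.

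Depth moved with membership, and the rule counts UMIs without dividing by depth. Members had a median of 7795, 7194, 10237 and 10804 UMIs in the adult F0, adult F5, aged F0 and aged F5 mouse, and other microglia 6471.5, 6506, 6931 and 6882. After each cell was thinned to 2000 UMIs, with a limit of 3 UMIs and 55 to 73 shallower microglia per mouse left out, the shares were 0.608, 0.403, 3.54 and 3.59%. Within cells of 5000 to 9000 UMIs they were 0.592, 0.486, 3.23 and 4.42%. The aged mice stayed above the adult mice in both, with a difference of 3.06 and 3.29 points in place of 5.72. Mitochondrial shares of members were close to those of other microglia, with medians of 2.20 to 3.10% against 2.35 to 3.42%. The doublet caller Scrublet called none of the 21 adult members, 11 of the aged F0 members (11.3%) and 8 of the aged F5 members (6.96%), against 3.16 to 4.63% of other microglia. Without its calls the shares averaged 0.707% in adult and 6.04% in aged mice.

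The cells lay on both sides of the limit without a gap in their counts. Exactly 5 UMIs were held by 58 microglia just outside the limit and exactly 6 by 32 members just inside it. The median member held 11 UMIs of the 8 genes and the highest 231, and 64 members held 20 or more. The 5 highest, with 231, 217, 120, 118 and 115 UMIs, were all from aged mice and none was called a doublet. The 38 other antiviral effectors, which the rule did not use, stood in the aged F0 and F5 mouse at 20.5 and 22.0 UMIs per 10000 in microglia with none of the 8 genes, 25.5 and 25.3 in those with 1 UMI and 59.6 and 47.4 in those with 5. Among members the same list stood at 41.3 and 61.0 in cells with 6 UMIs, 72.3 and 54.2 in cells with 7 to 9, 68.5 and 83.3 in cells with 10 to 19 and 91.8 and 109 in cells with 20 or more. Between 5 and 6 UMIs the list was thus lower in 1 aged mouse and higher in the other. Median depth went from 6504 and 6446 UMIs at 0 to 9615 and 11010 at 5. In the adult mice, summed, only 5 cells held 5 UMIs and 3 held 6, and the list stood at 15.1 at 0, 19.4 at 1, 27.9 at 2, 41.7 at 3 to 4, 18.1 at 5, 35.2 at 6, 96.9 at 7 to 9, 116 at 10 to 19 and 93.3 at 20 or more.

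How the RNA of the 8 genes was split between members and other microglia follows in part from the rule and is given as a description. In the aged F0 and F5 mice, 2082 and 2335 UMIs of the 8 genes lay in members and 1085 and 1055 in the other microglia, so that members held 65.7 and 68.9% of them with 8.67 and 10.7% of all microglial UMIs. In the adult F0 and F5 mice the members held 181 and 122 of these UMIs and the others 293 and 260, a share of 38.2 and 31.9%. The level within members was 15.4, 19.2, 17.5 and 16.2 UMIs per 10000 in the adult F0, adult F5, aged F0 and aged F5 mouse, and in other microglia 0.280, 0.249, 0.866 and 0.875. The aged values of the other microglia lay above the adult ones although the rule had removed their upper end, and the members' values overlapped.

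Outside the rule, many of the genes that were highest in members were antiviral effectors. For each mouse the log2 ratio of members to other microglia was taken, with 2 UMIs added to the observed and the expected count. These ratios are given without a test, since the rule chose the cells on this contrast. Of 10301 genes with at least 20 UMIs, 0.495% were at least 2-fold higher in members in all 4 mice and 0.00971% at least 2-fold lower, and the median log2 ratio of all genes was −0.07. Outside the rule 45 genes were higher and 1 was lower, *Rgs5*, a mural cell gene. The 38 effectors held 23 of the higher genes, of 37 with enough UMIs, and 35 of the 37 had a positive ratio in all 4 mice, with a median log2 ratio of 1.96. The adult ratios rest on 13 and 8 members, and the added UMIs pull them toward 0 for genes with few UMIs expected, so the ratios of these genes cannot be compared in size between adult and aged mice. With 0.5 UMIs added, 71 genes outside the rule were higher and 12 lower.

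*Irf7*, the transcription factor that amplifies the interferon response, had the highest mean log2 ratio outside the rule, with 3.18, 3.19, 2.96 and 3.17 in the adult F0, adult F5, aged F0 and aged F5 mouse (3.13 ± 0.11, SD, n = 4). Without added UMIs it stood at 187, 300, 119 and 152 counts per 1000000 UMIs (CPM) in members and 5.45, 4.70, 13.9 and 15.7 in other microglia, so the adult ratios, from 22 and 19 UMIs in members, were larger before the addition. The members of every mouse stood far above the other microglia of every mouse. *Slfn5*, a Schlafen family gene that interferon induces, had log2 ratios of 3.09, 3.14, 3.10 and 3.17 by the same measure, and stood at 196, 300, 193 and 168 CPM in members and 7.94, 6.14, 21.0 and 17.4 in other microglia. *Ifitm3*, a membrane protein that blocks viral entry, had 4.09, 3.28, 2.35 and 2.22 (2.99 ± 0.88), and *Ifi27l2a*, a small interferon-induced mitochondrial protein, 3.65, 3.05, 1.75 and 2.22 (2.67 ± 0.85). For both genes the adult ratios lay above the aged ones, and the level in other microglia was higher in the aged mice (62.4 and 46.1 against 159 and 170 CPM for *Ifitm3*). The mean ratios of *Ifit3b* (3.00 ± 1.57) and *Ifi206* (2.61 ± 1.38) had wide spreads, with 3 and 9 UMIs of *Ifit3b* and 6 and 2 of *Ifi206* in adult members, and reads of *Ifit3b* may be shared with the near-identical *Ifit3*. Close to these were *Mx1* (2.89), the GTPase that traps viral particles, *Zbp1* (2.54 ± 0.26), a sensor of Z-form nucleic acid, the DNA-binding PYHIN genes *Ifi204* (2.91), *Ifi207* (2.44) and *Ifi209* (2.20), *Rtp4* (2.54 ± 0.29), *Xaf1* (2.16 ± 0.19) and *Rnf213* (2.15 ± 0.24). *Fgl2* (2.18 ± 0.82), a fibrinogen-like protein gene, was in none of the lists. The 10 genes of 1 sign with the lowest mean ratio were *S100a9* (−2.63), *S100a8*, *Ngp* and *Camp*, which mark neutrophils, *Hba-a1*, *Hba-a2* and *Hbb-bs* of red cells, the antibody light chain *Igkc* (−2.25), the smooth muscle actin *Acta2*, and *Gm31243*. *S100a9* stood at 8.52, 31.5, 42.9 and 19.4 CPM in members and 549, 328, 62.6 and 164 in other microglia.

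**Figure D2:**
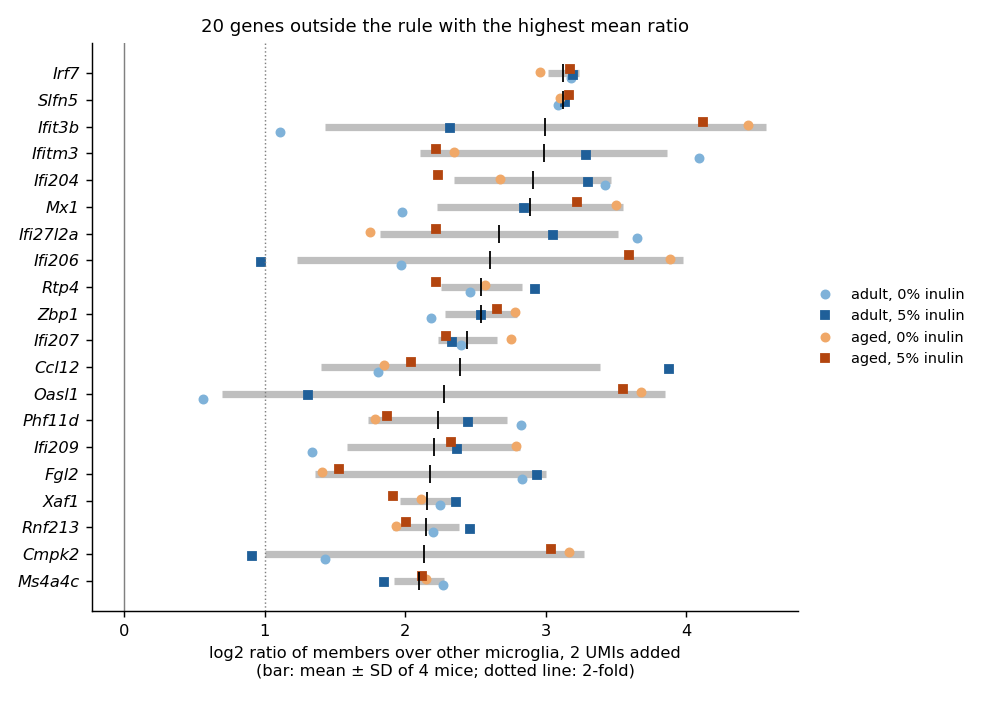
Log2 ratio of members over other microglia, with 2 UMIs added to the observed and the expected count, for the 20 genes outside the rule with the highest mean ratio, 1 point per mouse, with the mean as a tick, a grey bar for ± 1 SD over the 4 mice and the 2-fold ratio dotted. All points of *Irf7* and *Slfn5* lie right of the dotted line, and *Ifitm3* and *Ifi27l2a* have higher adult than aged ratios. Adult points of genes with few UMIs, such as *Ifit3b*, *Ifi206* and *Oasl1*, are drawn toward 0 by the added UMIs.

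The receptor chains of the pathway were not higher in members throughout. Among 19 receptor and signalling genes, 3, among them *Irf7* and *Stat2* (1.95 ± 0.09), were at least 2-fold higher in all 4 mice and the other 16 were not, and the median log2 ratio of the list was −0.01. *Ifnar1*, a receptor chain, had log2 ratios of 0.59, −0.51, 0.07 and −0.18, and *Ifnar2*, its partner, 0.09, −0.22, −0.14 and −0.17, with both signs in each gene. The kinase gene *Jak1* had −0.14, −0.50, −0.13 and −0.35, and *Tyk2* 0.64, −0.35, −0.28 and 0.13. Of 9 measured nucleic acid sensors, *Ifih1* (1.29 ± 0.25), which encodes the RNA sensor MDA5, and *Dhx58* (1.61 ± 0.15), which encodes its partner LGP2, passed the fold in all 4 mice. *Ddx58*, the gene of the RNA sensor RIG-I, had ratios of 0.79, 0.31, 1.58 and 1.39.

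Among chemokines and antigen presentation genes, only *Ccl12* and *Ccl5* were at least 2-fold higher in members in all 4 mice. Of 5 measured chemokines, *Ccl12* (1.81, 3.88, 1.85 and 2.04), a ligand of the monocyte receptor CCR2, and *Ccl5* (1.00, 4.07, 1.67 and 1.61), which attracts T cells, passed the fold in all 4 mice. *Cxcl10*, a ligand of CXCR3 on T and NK cells, had ratios of −1.16, 0.85, 2.72 and 2.70, with 0, 3, 416 and 585 UMIs in the members, and 39.8% of its member UMIs lay in 1 droplet. All 15 genes of MHC class I presentation had a positive ratio in all 4 mice, but none was 2-fold higher throughout, and their median was 0.67. The class I heavy chain *H2-K1* had ratios of 0.83, 1.39, 0.50 and 0.50, and the shared light chain *B2m* 0.42, 0.51, 0.35 and 0.29. *Irgm1*, an immunity-related GTPase, was the only 1 of 11 measured GTPases past the fold in all 4 mice (1.69 ± 0.31), and 8 of 11 passed it in both aged mice. In those 2 mice alone 3.72% of 10066 genes were at least 2-fold higher, and 31 of 36 effectors were. No gene of MHC class II presentation passed the fold in all 4 mice, and *Cd74*, the invariant chain, had ratios from 0.03 in the adult F5 to 2.98 in the adult F0 mouse.

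Homeostatic genes stood lower in members than in other microglia of each mouse, and disease-associated genes about level. Microglia in health express a set of homeostatic genes, and around plaques or with age many shift to the disease-associated state, with lipid handling and lysosomal genes. The 14 homeostatic genes summed to 216, 246, 154 and 129 UMIs per 10000 in members and 288, 297, 227 and 196 in other microglia of the adult F0, adult F5, aged F0 and aged F5 mouse. None of them was 2-fold lower in all 4 mice, and their median log2 ratio was −0.56. *P2ry12*, the purinergic receptor that guides microglial processes to injury, had ratios of −0.62, −0.76, −1.02 and −1.15, and *Slc2a5*, a fructose transporter, −0.97, −1.18, −0.89 and −1.19. The 18 disease-associated genes summed to 214, 168, 454 and 490 UMIs per 10000 in members and 199, 188, 393 and 466 in others, with a median log2 ratio of 0.06 and none past the fold.

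Within the aged mice, over cells of all depths, disease-associated genes were highest at 6 to 9 UMIs of the 8 genes and lower at 0 and at 20 or more. In the aged F0 mouse the list stood at 306 UMIs per 10000 in microglia with 0 UMIs of the 8 genes, 497 with 1 to 5, 621 with 6 to 9, 421 with 10 to 19 and 273 with 20 or more. In the aged F5 mouse the values were 394, 548, 605, 459 and 320. Both mice thus had their peak at 6 to 9 UMIs, and without *Apoe*, its most abundant gene, the list went from 332 and 331 at that peak to 162 and 187 at 20 or more. Other lists differed between the same bins. From 6 to 9 UMIs to 20 or more, astrocyte markers went from 3.51 and 8.46 to 16.3 and 12.5 UMIs per 10000, ependymal and choroid plexus markers from 20.6 and 64.5 to 29.8 and 326, and microglial and macrophage genes from 340 and 319 to 261 and 285, and their part in these values was not tested. The interferon-induced chemokines had the opposite order over the same cells, from 6.42 to 25.4 UMIs per 10000 in the aged F0 mouse and from 6.90 to 34.0 in the aged F5 mouse. Homeostatic genes were lower in every bin of members, at 148 to 164 and 122 to 140, than in cells with none of the 8 genes, at 253 and 218. Median depth also differed along these bins, from 6504 and 6446 UMIs at 0 to 10675 and 10921 at 6 to 9. Between 5000 and 9000 UMIs, where 28 aged F0 and 33 aged F5 members remained, the disease-associated list had no such peak, with 222, 473 and 284 in the 3 bins of aged F0 members and 277, 167 and 424 in those of aged F5 members, each of 7 to 16 cells. In the same window members had 205 and 215 homeostatic UMIs per 10000 against 276 and 249 in other microglia, and 91.6 and 99.5 effector UMIs against 23.3 and 25.4.

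**Figure D3:**
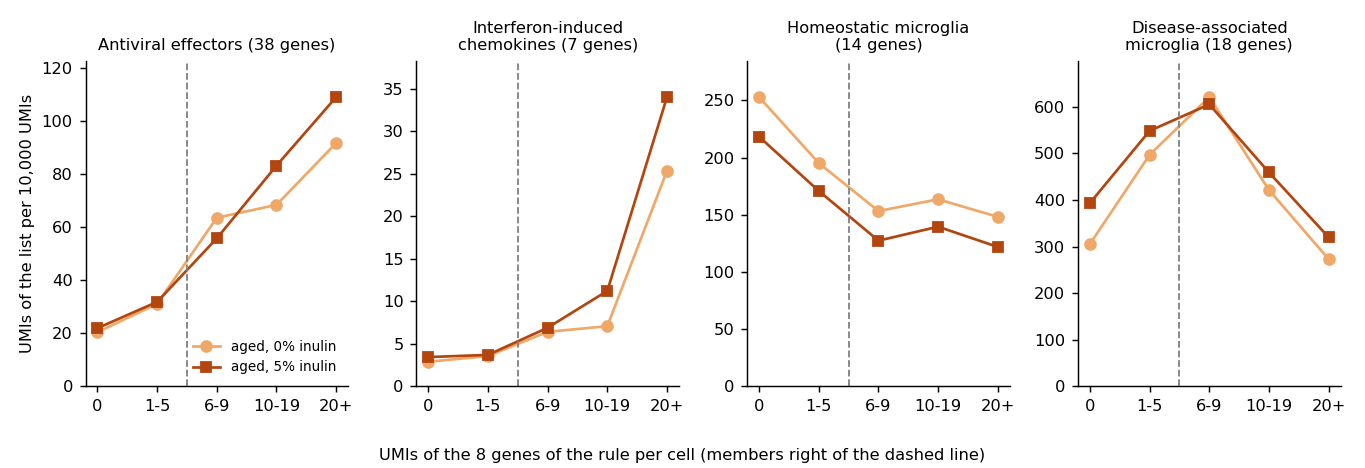
UMIs of 4 gene lists per 10000 UMIs (vertical axes) in microglia of the 2 aged mice binned by their UMIs of the 8 genes of the rule (horizontal axes), 1 line per mouse, with members to the right of the dashed line. Effectors and chemokines are highest at 20 or more UMIs, homeostatic genes are highest at 0, and disease-associated genes peak at 6 to 9 UMIs (621 and 605).

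Marker genes of other cell types were present in the members, and a few droplets held a large share of some lists. Astrocyte markers (6 genes, led by *Slc1a3* with 648 of 2106 UMIs, none at 0) summed to 5.28, 2.52, 7.52 and 7.85 UMIs per 10000 in the members and 7.59, 9.15, 4.93 and 5.60 in the others. They were thus lower in adult members and higher in aged members than in other microglia. At least 10 UMIs of *Aldoc*, *Aqp4*, *Slc1a2* and *Slc1a3* were held by 20 members (8.58%; 2, 0, 8 and 10 in the adult F0, adult F5, aged F0 and aged F5 mouse) and by 3.31% of other microglia, and Scrublet called 11 of the 20. Without such droplets members made up 0.637% of adult and 6.05% of aged microglia. Mural markers (6 genes, *Vtn* with 127 of 229 UMIs) stood at 10.4 per 10000 in the adult F0 members and between 0.158 and 0.546 in members of the other mice. In other microglia they stood at 1.30 to 2.21, and 1 droplet held 46.3% of the member UMIs. Oligodendrocyte lineage markers stood at 8.94 in adult F0 members, 0.555 to 0.788 in members of the other mice and 0.563 to 0.690 in other microglia. Neuron markers stood at 7.88 in adult F5 members, 0.0852 to 0.437 in members of the other mice and 0.247 to 0.485 in other microglia. Of the member UMIs of these lists, 1 droplet held 33.6 and 37.8%. Ependymal and choroid plexus markers stood at 162 per 10000 in the aged F5 members and 24.3 to 50.8 in members of the other mice. In other microglia they stood at 31.1 to 74.1. *Ttr* gave 26466 of their 27146 UMIs, and 1 droplet held 43.1%. *Ttr*, a choroid plexus gene, was also among the markers seen in all 233 members and all other microglia. Border macrophage markers (*Cd163* at 0) stood at 1.10 to 3.78 per 10000 in members and 1.55 to 2.27 in other microglia. Monocyte markers (led by *S100a4*, *Chil3* at 0) stood at 0.596, 0.158, 0.807 and 1.78 in members and 0.429, 0.292, 0.241 and 0.289 in others. T and NK cell markers (led by *Nkg7*, *Ncr1* at 0) stood at 0.0852, 0, 0.874 and 0.450 against 0.122, 0.0336, 0.195 and 0.260. Both of these lists were thus higher in members than in other microglia of both aged mice. Of their member UMIs, 1 droplet held 38.2 and 24.7%. Endothelial markers, which the rule caps in both sets, stood at 2.41 to 3.24 in members and 2.19 to 3.07 in other microglia. The part of these markers in the results was not tested beyond the values without astrocyte-marked droplets and without Scrublet calls.

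In the microglia as a whole, which were not chosen on interferon genes, the 8 genes of the rule were higher in aged than in adult mice. UMIs were summed over members and other microglia of each mouse and tested in edgeR (quasi-likelihood, Benjamini-Hochberg adjusted), and a gene was called at an adjusted *p* under 0.05 with a fold above 1.5. Of 15301 genes, 6.42% were called higher and 0.882% lower in aged mice (7.31% in all), and the median log2 fold change was −0.01. All 8 genes were called higher. CPM in the comparisons by age are scaled by edgeR's TMM factors and so differ from the unscaled values above. *Ifit3* stood at 9.32, 9.77, 70.1 and 73.2 CPM in the adult F0, adult F5, aged F0 and aged F5 mouse, a log2 fold change of 2.91 ± 0.09 (SE, adjusted *p* = 4.9e-06, edgeR). *Isg15* stood at 10.4, 9.42, 43.6 and 47.9 (2.21 ± 0.10, adjusted *p* = 1.6e-05, edgeR). *Rsad2* stood at 1.14, 1.07, 16.4 and 21.7, the largest fold of the 8 (4.09 ± 0.24). Both aged mice lay above both adult mice for each of these 3 genes, and the share of all genes with such an order is not given here. *Ifit1* (3.02 ± 0.14), *Ifit2* (2.76 ± 0.20), *Usp18* (2.74 ± 0.27), *Ifi44* (3.20 ± 0.52) and *Oasl2* (2.77 ± 0.17) were in the same range. Since these genes were examined with earlier results of these data known, the calls are not independent evidence of direction.

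In all microglia most tested antiviral effectors were called higher in aged mice, and the receptor genes *Ifnar1* and *Ifnar2* were not called. Of 37 tested antiviral effectors 30 were called higher and none lower, with a median log2 fold change of 1.93, among them *Ifi207* (3.27 ± 0.16), *Ifi27l2a* (2.91 ± 0.26), *Zbp1* (2.85 ± 0.19), *Slfn5* (2.16 ± 0.12), *Ifitm3* (2.05 ± 0.17), *Mx1* (1.98 ± 0.20) and *Bst2* (1.17 ± 0.09), which tethers budding virions. *Irf7* (2.15 ± 0.19) and *Stat2* (0.77 ± 0.11) were among the 3 called genes of 19 receptor and signalling genes. *Ifnar1* was not called (0.10 ± 0.07, adjusted *p* = 0.44, edgeR), nor was *Ifnar2* (0.12 ± 0.07, adjusted *p* = 0.33, edgeR). Of 10 sensors 3 were called higher, *Ddx58* (0.62 ± 0.10), *Ifih1* (0.73 ± 0.10) and *Dhx58* (1.35 ± 0.19), and the calls of *Ddx58* and *Ifih1* were lost in 3 and 1 of 11 alternatives. Among 6 tested chemokines 5 were called higher, *Cxcl9* (5.41 ± 0.61), *Ccl5* (2.63 ± 0.29), *Cxcl10* (2.61 ± 0.21), *Ccl12* (2.21 ± 0.12) and *Ccl2* (1.58 ± 0.10). *Cxcl9* had 0 and 2 UMIs in the adult and 58 and 48 in the aged mice. In the same comparison 3 of 6 tested T and NK cell markers were called higher (median log2 fold change 2.01) and 4 of 6 neutrophil markers lower (median −1.86), and their part in the other values was not tested. Of 15 MHC class I presentation genes 10 were called higher, such as *H2-Q6* (2.98 ± 0.14), *H2-D1* (1.66 ± 0.11) and *B2m* (1.08 ± 0.10), and of 12 GTPases 6 were, such as *Iigp1* (3.10 ± 0.31). *Ccl12*, *Ifi27l2a*, *H2-D1* and *B2m* were among the age genes the study chose on these mice, and reads of *H2-Q6* may be shared with its near copy *H2-Q7*.

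With the members taken away, 22 of 35 tested effectors were still called higher in aged microglia, with a median log2 fold change of 1.31. Of all 14994 genes tested, 5.84% were called higher and 1.11% lower. *Ifi207* (3.12 ± 0.20), *Ifi27l2a* (2.70 ± 0.20), *Ifitm3* (1.81 ± 0.13), *Ccl12* (1.97 ± 0.09) and *Irf7* (1.75 ± 0.17) were called. *Ifit3b* (0.71 ± 0.27) and *Cmpk2* (0.39 ± 0.33), a nucleotide kinase next to *Rsad2*, were not called. MHC class I genes had 10 of 15 calls here as well. All 8 rule genes were called higher in the other microglia too, although the rule cuts them off at 5 UMIs per cell, so that this is a description. Markers of other cell types also moved in this comparison. Called lower were 3 of 6 astrocyte markers (median log2 fold change −0.56) and 3 of 6 neutrophil markers (−1.74). Called higher were 2 of 6 T and NK cell markers (1.75) and 2 of 6 mural markers (0.51). Their part in the other values was not tested.

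Between members of aged and adult mice, by contrast, no antiviral effector was called. Of 7815 genes tested, 1.24% were called higher and 0.0768% lower in aged members (1.32% in all, 103 genes). The count was 157 with DESeq2, 33 with diet as a covariate and 11 after thinning. None of 35 effectors was among the 103 genes, with a median log2 fold change of −0.09 against 0.07 over all genes. Nor were any of 9 sensors and 19 receptor and signalling genes. *Ifitm3* stood at 1313, 657, 907 and 943 CPM in the members of the adult F0, adult F5, aged F0 and aged F5 mouse (−0.12 ± 0.27, adjusted *p* = 0.91, edgeR), and the aged values lay between the adult ones. *Irf7* stood at 184, 271, 133 and 181 TMM-scaled CPM (−0.48 ± 0.29, adjusted *p* = 0.59, edgeR). With 21 adult members this test had little reach, since in simulated sums it recovered 3% of genes changed 2-fold and 49.5% of genes changed 4-fold. The rule also holds the 8 genes above the same limit at both ages, and genes that move with them are tied to it.

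Genes called between members of the 2 ages included disease-associated genes. Of 18 disease-associated genes 10 were called higher (median log2 fold change 2.13), many of them age genes that the study chose on these mice. In the other microglia 15 of the 18 were called higher (median 2.87), so this age difference was not peculiar to members. In members *Lyz2*, lysozyme, stood at 769, 543, 3035 and 3275 CPM (2.25 ± 0.22, adjusted *p* = 0.00098, edgeR). *Cst7*, a cathepsin inhibitor, had 1, 1, 257 and 458 UMIs (4.85 ± 0.59). *Spp1*, osteopontin, had 1, 1, 1222 and 914 UMIs (6.46 ± 0.48), and 44.4% of them lay in 1 droplet. *Fabp5*, a fatty acid carrier, and *Lpl*, lipoprotein lipase, had 0 UMIs in adult members and 927 and 788 in aged members, at least 21.2-fold and 18.0-fold higher against a floor of 3 counts over the adult members. *Lgals3* (3.65 ± 0.48), *Clec7a* (2.02 ± 0.32), *Cd63*, *Ctsb* and *Ctsd* were called as well, and *Apoe* was not (2.60 ± 0.62, adjusted *p* = 0.077, edgeR), with 7042, 900, 22084 and 26683 CPM, but it was called in 8 of 11 alternatives. *Ccl3*, an inflammatory chemokine, had 12, 10, 1153 and 1423 UMIs (3.26 ± 0.26, adjusted *p* = 0.00031, edgeR), and the metal-binding *Mt1* 26, 10, 965 and 1436 (2.48 ± 0.27). *Mt3* (2.93 ± 0.36) and the astrocyte glutamate transporter *Slc1a2* (5.62 ± 0.64, 0, 1, 263 and 357 UMIs) were called, and all 6 astrocyte markers had a positive log2 fold change (median 2.09, 1 called). Of the 97 higher genes 46 were numbered *Rpl* or *Rps* genes of ribosomal proteins, a group noticed after the calls were seen, of which 95 were tested.

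From the interferon-linked lists, 5 genes were called higher in aged members. *Cxcl10* was the only 1 of 4 tested chemokines called (4.75 ± 0.58, adjusted *p* = 0.0041, edgeR). Its 3 adult UMIs came from 1 cell, its 1001 aged UMIs from 40 cells. The *Cxcl10* promoter holds 1 match to the response element (GAAAGTGAAA, beginning 213 bases before the start). *H2-D1* (1.13 ± 0.19), *B2m* (0.98 ± 0.17) and *H2-Q6* (3.24 ± 0.62) were the 3 of 15 class I genes called, and their calls were kept in 8 of 11, 7 of 11 and 4 of 9 alternatives. *Rsad2* (2.88 ± 0.57), with 1, 3, 143 and 219 UMIs, is a gene of the rule, so its value is a description, and its call was kept in 6 of 11 alternatives. Of the 6 genes called lower, *Vtn*, *Rbp4* and *Apod* had 74.0, 96.0 and 52.5% of their UMIs in 1 droplet each, and the heat shock gene *Hspa1b* fell by 1.35 on the log2 scale (736, 885, 386 and 246 CPM), a call kept in 6 of 11 alternatives. *Hspb1*, another heat shock gene, fell by 1.96 (243, 243, 46.0 and 77.3 CPM) and *Ly6a*, the gene of the surface protein Sca-1, by 1.76 (192, 471, 83.5 and 97.0 CPM), neither with over 50% of its UMIs in 1 droplet and each call kept in 7 of 11 alternatives. No higher gene had over 50% of its UMIs in 1 droplet. Over the 22 called genes followed through the alternatives, 182 of 228 combinations of gene and alternative kept the call.

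**Figure D4:**
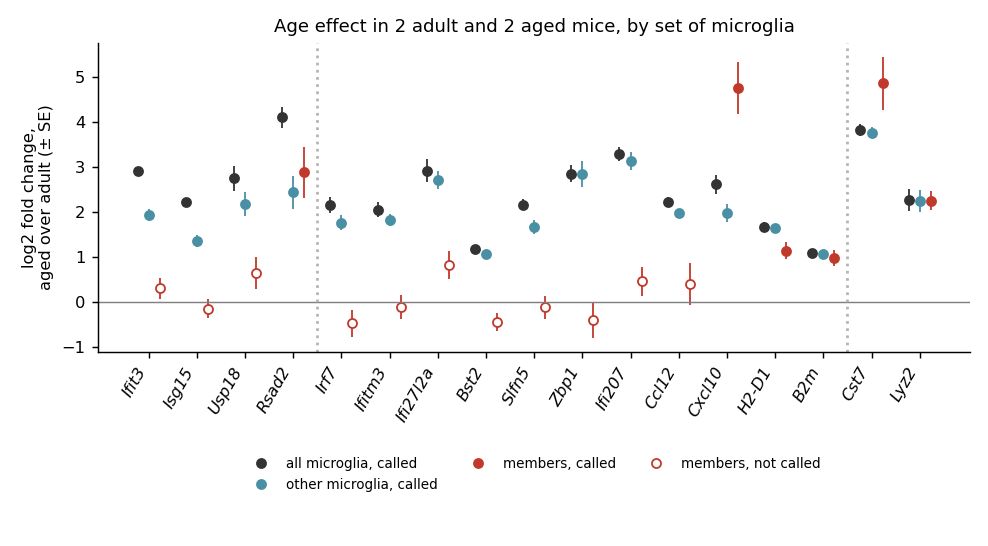
Log2 fold change of aged over adult mice (vertical axis, ± SE from edgeR) for 17 genes in all microglia, in the other microglia and in members, with filled points where the gene was called and open points where it was not. Dotted lines separate rule genes, other interferon-linked genes and disease-associated genes. Effectors such as *Ifitm3* (2.05 and 1.81) are called in all and in other microglia and lie near 0 in members (−0.12), while *Cst7* and *Lyz2* are called in all 3.

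The difference between both age effects was itself tested in edgeR over the sums of members and other microglia, blocked by mouse. Of 14194 genes, 0.359% had a larger and 0.5% a smaller log2 fold change in members than in other microglia (0.86% in all, 122 genes). Of 37 effectors 14 had a smaller one and none a larger, and the median difference was −1.31 against 0.26 over all genes. *Ifitm3* differed by −1.81 ± 0.20, *Ifi27l2a* by −1.81 ± 0.21, *Irf7* by −2.15 ± 0.37 and *Bst2* by −1.42 ± 0.19. Of 9 alternatives 9, 8, 7 and 7 kept these calls in the order given. In the same test 4 of 6 astrocyte markers and 3 of 5 ependymal and choroid plexus markers had a larger log2 fold change in members. Of the 8 rule genes, 4 are counted among those with a smaller log2 fold change in members. The rule itself bounds their UMIs in both sets, so these 4 are not read as a result. Genes that move with the 8 rule genes are held above the limit in members and below it in others at both ages. For such genes both the direction and the size of the difference follow in part from the rule, so they are given as a description. The count of 122 genes was 30 with DESeq2, 55 without astrocyte-marked droplets and 30 when only genes testable in members were kept.

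Inulin was not followed by a called gene in members. Of 7815 genes tested with edgeR, 0% were called between 5% and 0% inulin at either direction, 88 had an unadjusted *p* under 0.05, and DESeq2 called 0 with 12 under 0.05. The 6 genes with the smallest *p* had an adjusted *p* of 1.00 (edgeR) and each rested on 1 or 2 mice. *Plac8* had 0, 1, 5 and 98 UMIs in the adult F0, adult F5, aged F0 and aged F5 members, and 86.5% lay in 1 droplet. *Slc7a11*, a cystine transporter, had 46, 1, 34 and 1 UMIs, *Calb1* 2, 0, 94 and 10, and *Sept4* 2, 2, 8 and 83. Leaving out 1 mouse gave between 0 and 23 calls. In all microglia edgeR called 0% of 15301 genes, with 153 at an unadjusted *p* under 0.05, and DESeq2 called 4, *Hes5*, *Hbb-bs*, *Hba-a1* and *Hba-a2*, with 47 under 0.05. None of the 8 rule genes was among these 4. With age as a covariate edgeR called 15 genes in all microglia, 8 higher and 7 lower at 5% inulin, and 0 in members, with 154 at an unadjusted *p* under 0.05. The adult members numbered 13 and 8, and the size of change by diet that the test could detect was not simulated.

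UMIs of the 8 genes were also found in droplets classed as other brain cells, and how many of them were free RNA was not measured. Cells were classed by markers as border macrophage-type (309 cells), endothelial-type (10175) and astrocyte-type (5970), with median depths of 7599, 6902 and 7290.5 UMIs against 6717 in all microglia. Border macrophage-type cells held 3.22, 3.46, 9.53 and 7.89 UMIs of the 8 genes per 10000 in the adult F0, adult F5, aged F0 and aged F5 mouse, and endothelial-type cells 4.94, 6.12, 7.83 and 7.89. Astrocyte-type cells held 1.09, 0.739, 16.9 and 12.6, and all microglia averaged 0.406 in adult and 2.41 in aged mice. In each class both aged mice lay above both adult mice, with mean ratios of 2.61, 1.42, 16.2 and 5.93 (exact permutation *p* = 0.333 each, 4 classes compared). At least 6 UMIs were held by 12.2% of adult and 30.1% of aged border macrophage-type cells, 31.6 and 39.6% of endothelial-type and 3.47 and 19.3% of astrocyte-type cells, against 0.678 and 6.39% of microglia. Every one of these classes lay above microglia at both ages, and none of them is known to lack the genes, so no share of free RNA could be read from them. After thinning to 2000 UMIs, any UMI of the 8 genes was found in 5.08% of microglia in adult and 19.4% in aged mice, 24.7 and 46.0% of border macrophage-type, 52.5 and 61.1% of endothelial-type and 11.5 and 32.0% of astrocyte-type cells. In these 2 shares the aged over adult ratio of astrocyte-type cells lay below that of all microglia (5.56 against 9.43, and 2.77 against 3.82 after thinning).

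**Figure D5:**
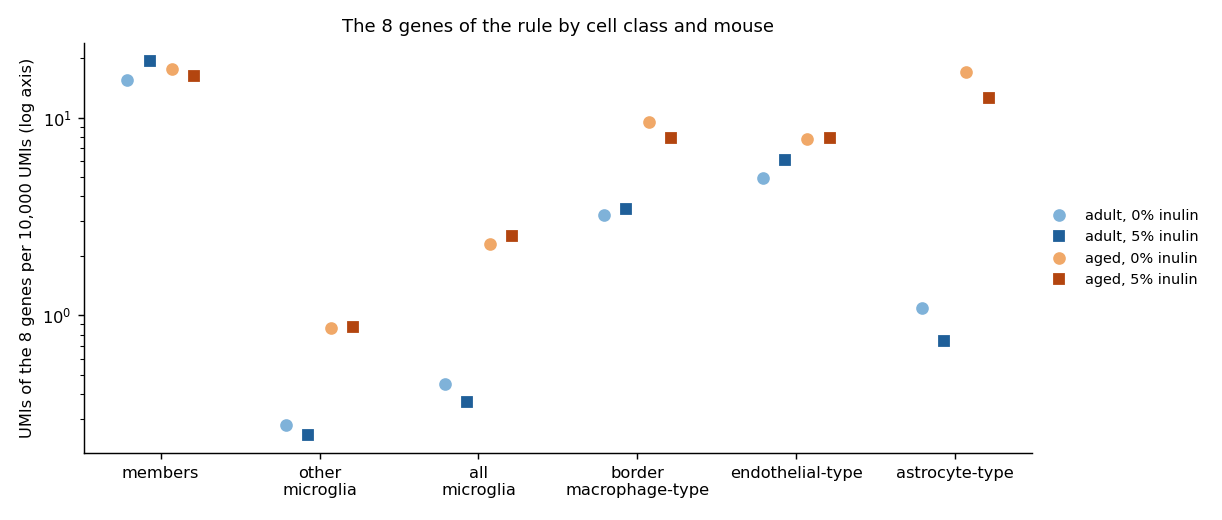
UMIs of the 8 genes of the rule per 10000 UMIs (log axis) in members, other microglia, all microglia and 3 other cell classes, 1 point per mouse. In every class but the members both aged mice lie above both adult mice, and astrocyte-type cells show the widest gap in this measure (0.913 to 14.7 on average).

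Type I interferons were hardly seen. Of 16 interferon genes listed, 12 had no UMI in any barcode. *Ifnb1*, interferon beta, had 5 UMIs in 2 barcodes, of which 4 UMIs were in microglia and 0 in members. *Ifnz* had 7 UMIs in 7 barcodes, of which 2 UMIs were in microglia and 0 in members. *Ifnk* had 3 UMIs in 3 barcodes, with 0 in microglia. *Ifng*, the type II interferon made by T and NK cells, had 558 UMIs, 29 of them in microglia and 7 in members. A count of 0 in the 2813989 UMIs of the members allows a level of up to 1.07 CPM, and transient or low transcripts were not detectable at this depth.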

How the data were processed

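Whole-brain single cells of 4 mice were measured with 10X Genomics Chromium 3′ chemistry. The authors demultiplexed and counted the reads with Cell Ranger 3.1.0 against GRCm38 (a filtered Ensembl 98 annotation, per the study's methods) and deposited whole-number UMI counts per gene and barcode, 1 matrix per mouse, not normalized. Nothing else was taken from the authors: all steps below were done on these counts. No column of per-sample values was left unused, and no file held the authors' own comparisons.

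Mice were grouped by the age and fiber labels. Members were found by the limits given in the report, of which 15.8% and the alternative upper limit of 22005 UMIs are 3 median absolute deviations above the median over all barcodes. Members, gene lists and tests were chosen with earlier results of these data known, so no list is independent evidence. UMIs were summed per gene and mouse and tested with edgeR 4.0.16 (filterByExpr, TMM, quasi-likelihood fit and test, R 4.3.3), with calls at a Benjamini-Hochberg adjusted *p* under 0.05 and a fold above 1.5. SE was computed from the log2 fold change and its F statistic (absolute value divided by the root of F). The difference of age effects had the mouse as a block. DESeq2 1.42.0 was an alternative. Shares were compared with an exact permutation test (scipy 1.17.1), Scrublet ran in scanpy 1.11.5 (expected rate 0.08, seed 0) with its calls kept in, and thinning used 2000 UMIs (seed 7). Ratios of members to other microglia took genes with at least 20 UMIs observed or expected.

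Named beyond the 28 gene lists were the 20 genes outside the rule with the highest and the 10 with the lowest mean ratio of 1 sign in all mice, and, for each edgeR comparison, the 10 called genes with the smallest *p* in each direction, or, with no call, 3. Not by this rule, but after their values were seen, the text names the 4 genes DESeq2 called by diet. On simulated sums for aged against adult microglia, edgeR recovered 74% of genes changed 2-fold with 4 false calls among 15011 genes. Members summed to 117420, 63414, 1189438 and 1443717 UMIs in the adult F0, adult F5, aged F0 and aged F5 mouse. Alternatives varied the limits of the rule, the tool, the scaling, the filter, thinning, doublet calls and each mouse left out, and a window of 5000 to 9000 UMIs, the removal of astrocyte-marked droplets, the aged mice alone and the genes tested in members alone were added after seeing the data. Near-identical copies (*Ifit3* and *Ifit3b*, *H2-Q6* and *H2-Q7*, *Hba-a1* and *Hba-a2*, *Hspa1a* and *Hspa1b*) may share reads. The values of 1 signalling gene are not reported here.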

Additional observations from a re-analysis of the deposited data

Results flagged for a closer look

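The share of members differed in opposite directions with inulin at the 2 ages. It differed by −0.333 percentage points (5% minus 0% inulin) in adult mice, from 0.845 to 0.512%, and by 1.45 points in aged mice, from 5.67 to 7.12%. Each value rests on 1 mouse per diet, so the difference between the ages was not tested, and the intervals of the mice overlapped within each age. After thinning to equal depth the aged shares were 3.54 and 3.59%, and with a limit of 10 UMIs 3.33 and 3.72%, a smaller difference in both, while without Scrublet calls they were 5.21 and 6.87% and without *Isg15* 4.56 and 6.01%.

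The age effect differed between members and other microglia for 122 of 14194 genes (edgeR, mouse as a block), 51 with a larger and 71 with a smaller log2 fold change in members. The larger ones included 4 of 6 astrocyte markers. The smaller ones included *Ifitm3*, *Ifi27l2a*, *Bst2* and *Irf7*. They also included 4 of the 8 rule genes, which the rule bounds in both sets and which are not read as a result. The rule itself bounds genes that move with its 8 genes, so the direction of their difference follows in part from it, as described above.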

How the results depend on the processing

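No paired analysis was possible because the labels give no replicate numbers and each combination of age and diet had 1 mouse. Fits with diet as a covariate compared the ages within diets, and members and other microglia were blocked by mouse in the main comparison of their age effects. The difference of the share of members between ages kept its direction in every alternative, at 9.02 points with a limit of 4 UMIs, 3.07 with 10 UMIs, 3.06 after thinning, 4.70 without *Isg15*, 3.29 within 5000 to 9000 UMIs, and 4.99 to 6.44 with 1 mouse left out. The calls of all 8 rule genes in all microglia held in 88 of 88 combinations of gene and alternative. For all microglia, adjusted *p* alone gave 2127 called genes by age and thinning 594, in place of 1118. In the other microglia the count of 1043 became 1973 with adjusted *p* alone, 678 without a filter, 479 after thinning and 595 to 1172 with 1 mouse left out. In members, 103 calls became 157 with DESeq2, 352 without a filter, 33 with diet as a covariate, 11 after thinning and 39 to 167 with 1 mouse left out. Without the adult F0 mouse, the log2 fold change of *Ifitm3* in members changed sign to 0.56 and that of *Apod* to 0.38. Over all alternatives with a value (11 and 8), they ranged from −0.49 to 0.56 and from −6.68 to 0.38. By diet, members had 24 calls without a filter and 0 to 23 with 1 mouse left out, and all microglia 4 with DESeq2, 3 without a filter, 15 with age as a covariate, 1 after thinning and 0 to 1 with 1 mouse left out. In place of 122 genes with different age effects, 30 were called with DESeq2, 30 among genes tested in members alone, 55 without astrocyte-marked droplets and 34 to 125 with 1 mouse left out. The 45 genes outside the rule that were 2-fold higher in members became 22 after thinning, 71 with 0.5 UMIs added, 366 in the aged mice alone and 46 to 84 with 1 mouse left out. The causes of these shifts were not tested. Thinning and leaving mice out test fewer molecules, but some counts rose when a mouse was left out. Depth limits the members, since 21 adult cells held 180834 UMIs.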

Other observations

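Besides the disease-associated genes, both ferritin genes and 1 of 5 tested proliferation genes were called higher in aged members. The 3 genes were picked after their values were seen. In the other microglia 6 of 9 tested proliferation genes were called higher (median log2 fold change 1.64). The call of a proliferation gene was thus not peculiar to members. *Fth1*, a ferritin chain that stores iron, stood at 4466, 3684, 9971 and 10496 CPM in members of the adult F0, adult F5, aged F0 and aged F5 mouse (log2 fold change 1.33 ± 0.17, edgeR), and *Ftl1*, the other ferritin chain, at 2635, 1856, 5101 and 5676 (1.26 ± 0.20). Both aged mice lay above both adult mice for each gene, and the share of all genes with such an order is not given here. *Top2a*, a topoisomerase of dividing cells, had 0 UMIs in adult members and 155 in 13 aged members. The 9 proliferation genes summed to 0.426, 0.315, 2.30 and 3.27 UMIs per 10000 in members and 0.385, 0.456, 1.20 and 0.567 in other microglia, and 1 droplet held 17.7% of those in members.

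The rule left out 5595 barcodes with at least 6 UMIs of the 8 genes. Of these 5278 fell under the *C1q* limit, 113 were over the mitochondrial limit, 111 over the endothelial limit alone, 74 over the border macrophage limit and 19 had under 1000 UMIs. The barcodes over the mitochondrial limit numbered 7 and 5 in the adult and 56 and 45 in the aged mice, of 692, 873, 776 and 1069 such barcodes.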
